A study of Sus scrofa with 16 samples.

Results

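HMGCS1 and CYP51, 2 of the 3875 genes in the count table, encode enzymes of cholesterol synthesis and were examined here in pig satellite cells (SCs). They were taken as named rows of the table, with no threshold on their values, though earlier results of these data were known when they were chosen. SCs, the stem cells of skeletal muscle, came from the intercostal muscle (INT) of 4 wild-type (WT) and 4 DMD piglets. All were males aged 3 days, and the DMD piglets carried a DMD gene lacking exon 52, a model of Duchenne muscular dystrophy in which the deletion is present in every cell of the animal and not in muscle alone. The SCs of each piglet were collected as proliferating cells (PROL, 20% fetal bovine serum with basic fibroblast growth factor, passage 6) and as differentiated cells (DIFF, 5% horse serum without that factor), giving 4 groups of 4 samples. For RNA, SCs had differentiated for 10 days according to one passage of the methods, whereas another gives 7 days. Because medium, growth factor and days in culture changed together between PROL and DIFF, their parts in a difference between the states cannot be told apart.

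Cells build cholesterol from acetyl-CoA. HMGCS1, the cytosolic HMG-CoA synthase, makes HMG-CoA, from which mevalonate is formed, and mevalonate is turned into farnesyl diphosphate, squalene and lanosterol. CYP51, a cytochrome P450 of the endoplasmic reticulum, then removes the 14α-methyl group of lanosterol in the first part of the route from lanosterol to cholesterol. HMGCS1 and CYP51 thus stand near the start and among the sterol steps of the same pathway. Genes of this pathway are known targets of the transcription factor SREBP2, which is held back by INSIG proteins when sterols are plentiful. Muscle cells use cholesterol for their plasma membrane and its invaginations, the T-tubules and caveolae.

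Reads were counted per gene after removal of duplicates by unique molecular identifiers (UMIs). The libraries were primed at the poly(A) tail and enriched for 3′ ends, so a count does not tell which transcript of HMGCS1 or CYP51 it came from, and the levels of both genes are not compared with each other. Libraries held 1110050 to 1781174 counts. The 18S ribosomal RNA gene took 20.4% of the counts in DMD PROL replicate 4 and 6.32% to 11.7% in the others. Counts of the DMD gene were at 6 in each WT PROL library and at 24 to 32 in DMD PROL, at 12 to 22 in WT DIFF and at 30 to 48 in DMD DIFF. Such 3′ reads do not check the deletion. Of the genes that define myogenic cells, MYF5 had no count in any of the 8 WT libraries and 2 to 18 in each of the DMD libraries, whereas DES, the muscle intermediate filament, had 82 to 566 counts in WT and 1598 to 3564 in DMD libraries. In bulk RNA, fewer cells of a type and less RNA per cell cannot be told apart.

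HMGCS1 was at a low level in PROL and several times higher in DIFF, and the DIFF level was lower in DMD than in WT SCs. Values are CPM, counts set relative to library size and scaled by TMM factors, with replicate numbers standing for animals of one genotype. In WT PROL, HMGCS1 was at 30.6, 21.1, 23.9 and 33.9 CPM in replicates 1 to 4, with a mean of 27.4 ± 5.88 (SD, n = 4). In DMD PROL it was at 30.8, 22.8, 21.0 and 23.6 CPM, a mean of 24.5 ± 4.31. The PROL groups overlapped, and DMD PROL replicate 1 lay among the higher WT libraries. In WT DIFF the 4 animals had 114, 121, 135 and 135 CPM (126 ± 10.3). DMD DIFF replicates 1 to 4 had 70.1, 89.9, 59.1 and 66.9 CPM (71.5 ± 13.1). All DIFF libraries lay above all PROL libraries, and the highest DMD DIFF library, replicate 2, lay below the lowest WT DIFF library, replicate 1. The order of the group means was DMD PROL, WT PROL, DMD DIFF and WT DIFF, of which the first 2 overlapped and all later neighbours were separate.

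These levels rest on 34 to 50 counts of HMGCS1 per PROL library and 82 to 208 per DIFF library. For WT PROL replicate 2, with 34 counts, counting error alone gave an exact Poisson 95% interval of 14.6 to 29.5 CPM, wider than the range of the 4 libraries of its group. All values of the table were even numbers, for which the sources give no reason. If each molecule stood as a count of 2, that interval would run from 12.3 to 33.8 CPM.

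CYP51 showed the same order of groups. In WT PROL it was at 52.5, 63.4, 55.5 and 72.4 CPM in replicates 1 to 4 (60.9 ± 8.92, n = 4), and in DMD PROL at 41.9, 64.5, 74.6 and 48.6 CPM (57.4 ± 14.9). The DMD PROL libraries spread on both sides of the WT PROL libraries, with replicate 1 the lowest and replicate 3 the highest of all 8. In WT DIFF, CYP51 reached 311, 339, 328 and 313 CPM (323 ± 13.0). In DMD DIFF it reached 189, 231, 190.2 and 249 CPM (215 ± 30.1). Again every DIFF library exceeded every PROL library, and all 4 DMD DIFF libraries lay below all 4 WT DIFF libraries. WT DIFF was the most uniform group, with a coefficient of variation of 4.04%, against 14.0% in DMD DIFF, 14.6% in WT PROL and 25.9% in DMD PROL. CYP51 was covered by 68 to 128 counts per PROL library and 264 to 506 per DIFF library.

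**Figure D1:**
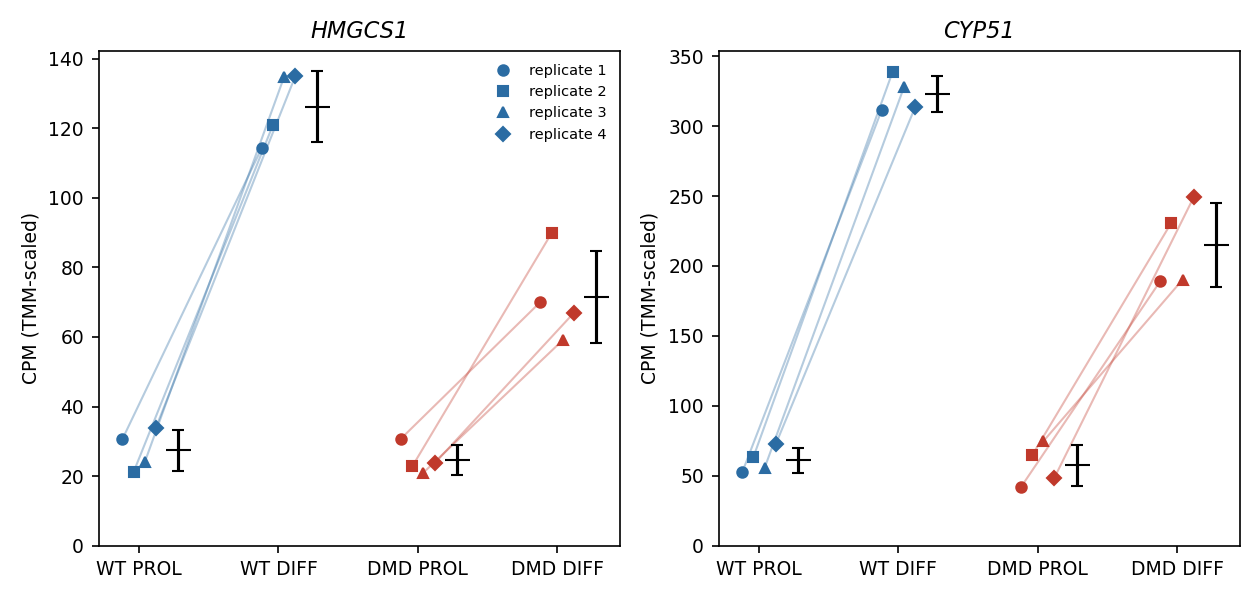
Level of HMGCS1 (left) and CYP51 (right) in each library, in TMM-scaled CPM on axes that start at 0. Symbols are replicates, thin lines join the PROL and DIFF samples of an animal, and black marks give the mean and SD of 4 animals. Every line rises, the PROL groups overlap, and the DMD DIFF points (59.1 to 89.9 CPM for HMGCS1 and 189 to 249 CPM for CYP51) lie below the WT DIFF points (114 to 135 and 311 to 339 CPM).

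The comparison of DIFF with PROL asked how both genes changed when SCs of one genotype were brought to differentiate. It used edgeR's quasi-likelihood F test over all genes that passed the filter on low counts, and genes were called where the log2 fold change exceeded 0.6 in either direction and p, adjusted by Benjamini-Hochberg, was under 0.05. In WT SCs HMGCS1 rose 4.59-fold, a log2 fold change of 2.20 (SE 0.18, 95% interval 1.82 to 2.58, edgeR adjusted p = 9.4e-08). CYP51 rose 5.24-fold in WT SCs, with a log2 fold change of 2.39 (SE 0.13, 2.12 to 2.66, edgeR adjusted p = 1.1e-09). Of the 1921 genes tested, 17.9% were called higher in DIFF and 23.6% had all 4 DIFF above all 4 PROL libraries. The fold change of CYP51 exceeded that of 97.1% of these genes and the fold change of HMGCS1 that of 96.3%, so both were among the larger increases in WT SCs.

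In DMD SCs HMGCS1 rose 2.89-fold (log2 fold change 1.53, SE 0.21, 95% interval 1.10 to 1.97, edgeR adjusted p = 1.3e-05). CYP51 rose 3.71-fold (1.89, SE 0.17, 1.52 to 2.26, edgeR adjusted p = 1.9e-07). Here 16% of 1886 tested genes were called higher in DIFF, and 21.6% had all 4 DIFF above all 4 PROL libraries. Both enzymes therefore rose in either genotype, and HMGCS1 and CYP51 exceeded 94.0% and 96.2% of the tested genes in their fold change in DMD SCs. With library totals in place of TMM factors, the median log2 fold change of all tested genes moved from 0.03 to −0.32 in WT SCs and from 0.01 to −0.06 in DMD SCs, and the calls for all genes in WT from 343 higher and 275 lower to 194 and 564. In WT SCs HMGCS1 then had a log2 fold change of 1.85 and CYP51 of 2.04, both still called.

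Each animal gave both a PROL and a DIFF sample, so the change could be followed within animals. HMGCS1 rose on the log2 scale by 1.86, 2.45, 2.43 and 1.95 in WT animals 1 to 4 (mean 2.17 ± 0.31, n = 4) and by 1.15, 1.92, 1.44 and 1.45 in DMD animals (1.49 ± 0.32). The smallest increase was 2.22-fold, in DMD animal 1, and the largest 5.45-fold, in WT animal 2. CYP51 rose by 2.54, 2.40, 2.53 and 2.09 in the WT animals (2.39 ± 0.21) and by 2.14, 1.82, 1.34 and 2.33 in the DMD animals (1.91 ± 0.43). Both genes rose in 8 of 8 animals. For HMGCS1 the WT and DMD changes overlapped only through DMD animal 2, whose 1.92 exceeded the 1.86 of WT animal 1, whereas for CYP51 DMD animals 1 and 4 lay within the WT range. The animal with the smallest change differed between the genes in DMD SCs, animal 1 for HMGCS1 and animal 3 for CYP51.

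The comparison of DMD with WT SCs asked whether the missing exon was accompanied by another level of either enzyme in a given state. In PROL no difference was detected for HMGCS1, whose log2 fold change was −0.16 (SE 0.25, 95% interval −0.69 to 0.37, edgeR adjusted p = 0.696). The same held for CYP51, at −0.09 (SE 0.20, −0.53 to 0.34, edgeR adjusted p = 0.786). These intervals leave room for a DMD level between 0.621 and 1.29 times the WT level for HMGCS1 and between 0.694 and 1.27 times for CYP51. In this state 18.2% of 1914 tested genes were called in either direction. With library totals their median log2 fold change moved from −0.0021 to −0.15, and the calls from 160 higher and 189 lower to 122 and 264.

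In DIFF, HMGCS1 was called lower in DMD SCs, at 0.566 times the WT level, with a log2 fold change of −0.82 (SE 0.16, 95% interval −1.15 to −0.49, edgeR adjusted p = 3.2e-04). CYP51 was at 0.663 times the WT level, with −0.59 (SE 0.11, −0.83 to −0.36, edgeR adjusted p = 2.8e-04). Its adjusted p was thus as small as that of HMGCS1, but its fold change fell just short of the limit of 0.6, so CYP51 was not called. It was called, at −0.61, −0.63 and −0.67, without WT DIFF replicate 1, DMD DIFF replicate 2 and DMD DIFF replicate 4. HMGCS1 kept its call when any single library was left out, at −0.96 to −0.73. Among the 1916 genes tested in DIFF, 33.6% were called in either direction, 17.5% were called lower in DMD, and 23.2% had all 4 DMD below all 4 WT libraries as HMGCS1 and CYP51 did. HMGCS1 was lower than 85.3% of the tested genes in its fold change, and CYP51 lower than 78.9%. With library totals the median of all tested genes moved from −0.03 to 0.10, the calls from 308 higher and 335 lower to 387 and 267, and the values of HMGCS1 and CYP51 to −0.69 and −0.46.

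Whether the genotype difference itself was larger in DIFF than in PROL was tested over all 16 libraries as an interaction. The difference of the log2 fold changes was −0.67 for HMGCS1 (SE 0.27, 95% interval −1.22 to −0.12, edgeR adjusted p = 0.0624) and −0.51 for CYP51 (SE 0.22, −0.95 to −0.06, edgeR adjusted p = 0.0830). Neither passed the threshold, although both intervals, which are not corrected for the number of genes, lay below 0, and 23.4% of 2030 genes were called in this test. HMGCS1 passed at −0.78 without WT PROL replicate 4 (edgeR adjusted p = 0.0356) and at −0.80 without DMD DIFF replicate 2 (0.0299), and CYP51 passed at −0.63 without DMD PROL replicate 1 (0.0258). With library totals the median difference of all genes moved from −0.04 to 0.25, the calls for all genes from 213 higher and 263 lower to 387 and 134, and the differences for HMGCS1 and CYP51 to −0.39 and −0.23.

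Across the 16 libraries the log2 CPM of HMGCS1 and CYP51 had a Pearson correlation of 0.949. The points share animals, states and library sizes, and fall into a PROL cloud and 2 DIFF clouds. Once the mean of its group was taken from each library, the correlation was −0.17, so that the animal with more HMGCS1 in a group was not in general the one with more CYP51. In DMD PROL, for example, replicate 1 had the most HMGCS1 (50 counts) and the least CYP51 (68 counts), and replicate 3 had the most CYP51 (128 counts). Replicates 2, 3 and 4 of that group had 36 HMGCS1 counts each, so their order in HMGCS1 came from library scaling alone. How far counting error at such counts lowers the correlation within groups was not tested. The counts of HMGCS1 per count of CYP51, with 1 added to each, had mean log2 values of −1.15 ± 0.33 in WT PROL, −1.18 ± 0.59 in DMD PROL, −1.35 ± 0.13 in WT DIFF and −1.59 ± 0.24 in DMD DIFF (n = 4 each). Such a ratio within a library does not depend on its scaling. From WT to DMD it changed by −0.04 in PROL (two-sided exact permutation p = 0.971) and by −0.23 in DIFF (exact permutation p = 0.171). From PROL to DIFF it changed by −0.20 in WT (exact permutation p = 0.286) and by −0.40 in DMD SCs (exact permutation p = 0.314). These 4 comparisons had adjusted p of 0.971, 0.419, 0.419 and 0.419 in the same exact tests, where 0.0286 is the smallest p that 4 against 4 samples can give, so no change of one enzyme relative to the other was detected.

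**Figure D2:**
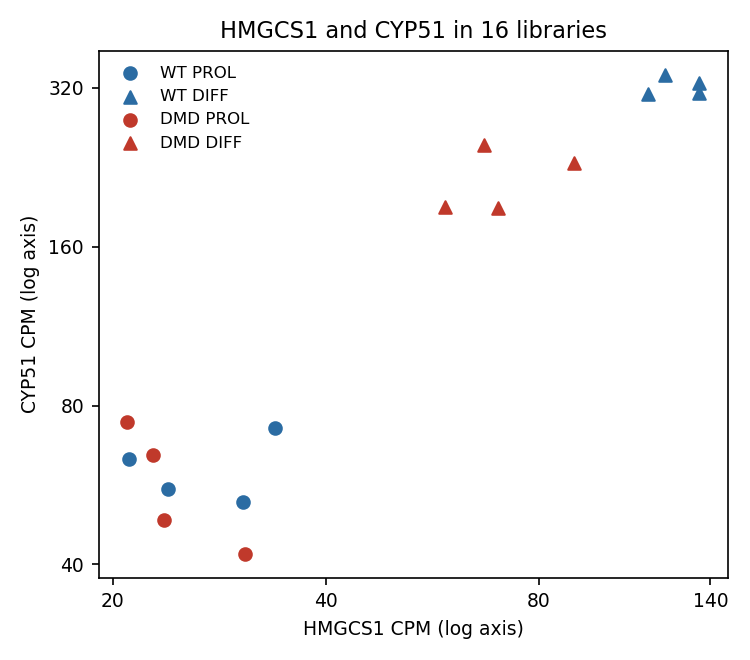
CYP51 against HMGCS1 in the 16 libraries, in TMM-scaled CPM on log axes, with circles for PROL, triangles for DIFF, blue for WT and red for DMD. The 8 PROL libraries lie together at 21.0 to 33.9 CPM of HMGCS1, DMD DIFF lies between and WT DIFF at the top right, and within a group the points show no common slope.

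Other enzymes of the pathway were called higher on differentiation as well. Of 24 names of sterol synthesis reported here, 10 were in the table and 8 or 9 passed the filter in each comparison. HMGCS1 and CYP51 are among them, so the counts, medians and sums given for this list include both and are not independent of them. In WT SCs 7 of 9 were called higher in DIFF, beside 17.9% of all tested genes, and none lower, with a median log2 fold change of 1.38 against 0.03 over all tested genes. In DMD SCs 7 of 9 were called higher, beside 16% of all tested genes, and none lower, with a median of 1.53 against 0.01. Besides HMGCS1 and CYP51, the enzymes called in both genotypes were FDPS, FDFT1, SQLE, MSMO1 and NSDHL. The summed level of the 10 enzymes ranged from 449 to 518 CPM in WT PROL and from 363 to 445 in DMD PROL. In DIFF it ranged from 1324 to 1611 CPM in WT and from 1061 to 1271 in DMD SCs. All DIFF sums exceeded all PROL sums and the DIFF groups were separate. Since HMGCS1 and CYP51 are part of these sums and no sum without them was made, this adds nothing independent on the other enzymes.

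Taken in the order of the pathway, PMVK, a kinase of the mevalonate route, had log2 fold changes of 0.10 in WT and 0.27 in DMD SCs and was not called in either. FDPS, the synthase of farnesyl diphosphate, had the most counts of the list and rose by 1.38 in WT and 1.63 in DMD SCs (SE 0.12 and 0.11, edgeR adjusted p = 1.5e-07 and 2.4e-09). FDFT1, which makes squalene, rose by 1.49 and 1.27, and SQLE, which oxidises squalene and is a rate-limiting step, by 1.87 and 1.69 (SE 0.15 and 0.16, edgeR adjusted p = 7.4e-08 and 2.0e-07). The enzymes of squalene formation and oxidation thus rose in both genotypes, as HMGCS1 and CYP51 did.

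Downstream of CYP51, MSMO1 and NSDHL, which remove the methyl groups at carbon 4 of the sterol, rose by 1.08 and 0.79 in WT and by 1.61 and 0.92 in DMD SCs. MSMO1 had only 4 to 48 counts per library, and its WT call was lost in DESeq2, with library totals, without the filter on low counts, and without any of 7 single libraries. The WT call of NSDHL was lost with library totals and with the first technical duplicate alone, and the DMD calls of NSDHL and FDFT1 were lost with the second duplicate alone. EBP, the sterol isomerase, had values of 0.80 and 0.54 that did not pass (edgeR adjusted p = 0.0530 and 0.247). HSD17B7, a ketosteroid reductase, had 0 to 12 counts per library and was not tested.

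**Figure D3:**
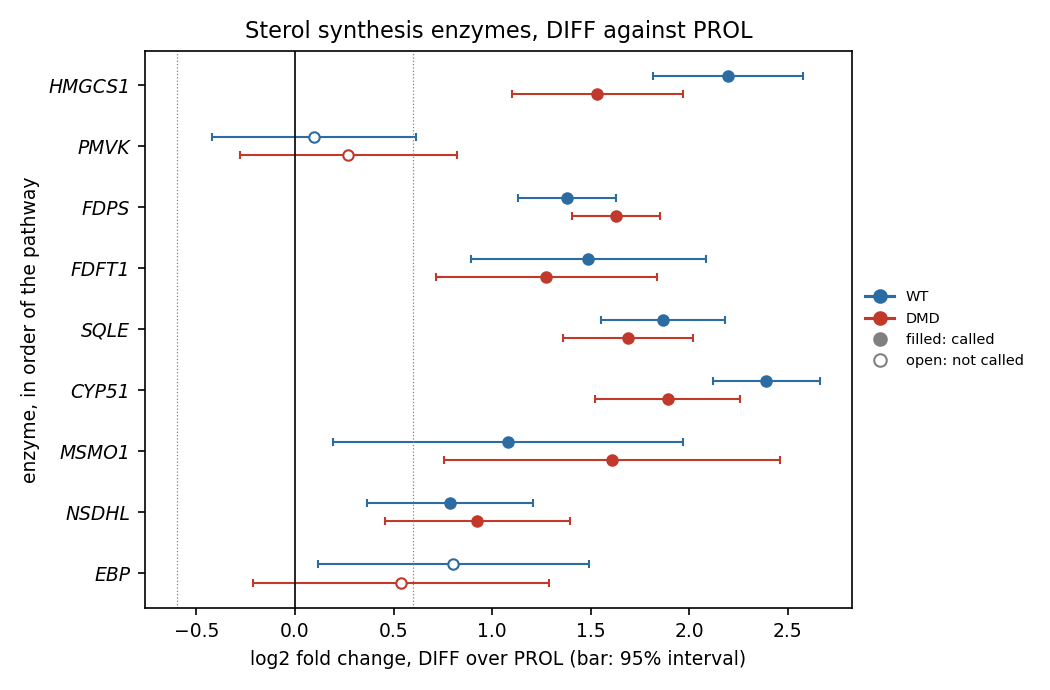
Log2 fold change from PROL to DIFF of the 9 sterol synthesis enzymes tested, from earlier steps at the top to later ones at the bottom, in WT (blue) and DMD SCs (red). Points are edgeR estimates, bars 95% intervals, filled points were called and dotted lines mark the limit of 0.6 on either side of 0. All estimates lie above 0, with HMGCS1 at 2.20 and 1.53 and CYP51 at 2.39 and 1.89.

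Between the genotypes the enzymes were less uniform. In PROL, edgeR called 0 of 8 tested enzymes, beside 18.2% of 1914 tested genes. At an unadjusted edgeR p under 0.05 were 2 of the 8, beside 737 of the 1914 genes. DESeq2 called 0 of the enzymes as well, beside 364 of all tested genes. The median log2 fold change was −0.17 against −0.0021 over all genes, and 8 of 8 estimates were below 0. SQLE, at −0.48 (edgeR adjusted p = 0.0793), was called with library totals, at −0.64, and without DMD PROL replicate 4, the library with the largest ribosomal share, at −0.65. In DIFF, 2 of 9 enzymes were called lower in DMD, a share near the 17.5% of all tested genes, and none higher, beside 16.1% of all tested genes. The 2 were HMGCS1 itself and SQLE, the latter at −0.66 (SE 0.12, edgeR adjusted p = 1.6e-04). The median was −0.39 against −0.03 over all genes, and 7 of 9 estimates were below 0, those of HMGCS1 and CYP51 among them.

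The call of SQLE in DIFF was lost with library totals (−0.53), with the second duplicate alone and without WT DIFF replicate 4. FDPS, at −0.08 (SE 0.10), turned to 0.05 with library totals. Among the others, FDFT1 was at −0.39, NSDHL at −0.23, EBP at −0.44, PMVK at 0.07 and MSMO1 at 0.55, none of them called. A lower DMD level in DIFF was thus called for HMGCS1, the earliest counted enzyme of the pathway, and for SQLE. It was not called for FDPS, the enzyme with the most counts. In the interaction test edgeR called 0 of 9 enzymes, beside 23.4% of 2030 tested genes. At an unadjusted edgeR p under 0.05 were 2 of the 9, HMGCS1 and CYP51, beside 774 of the 2030 genes. DESeq2 called 0 of the enzymes as well, beside 511 of all tested genes.

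**Figure D4:**
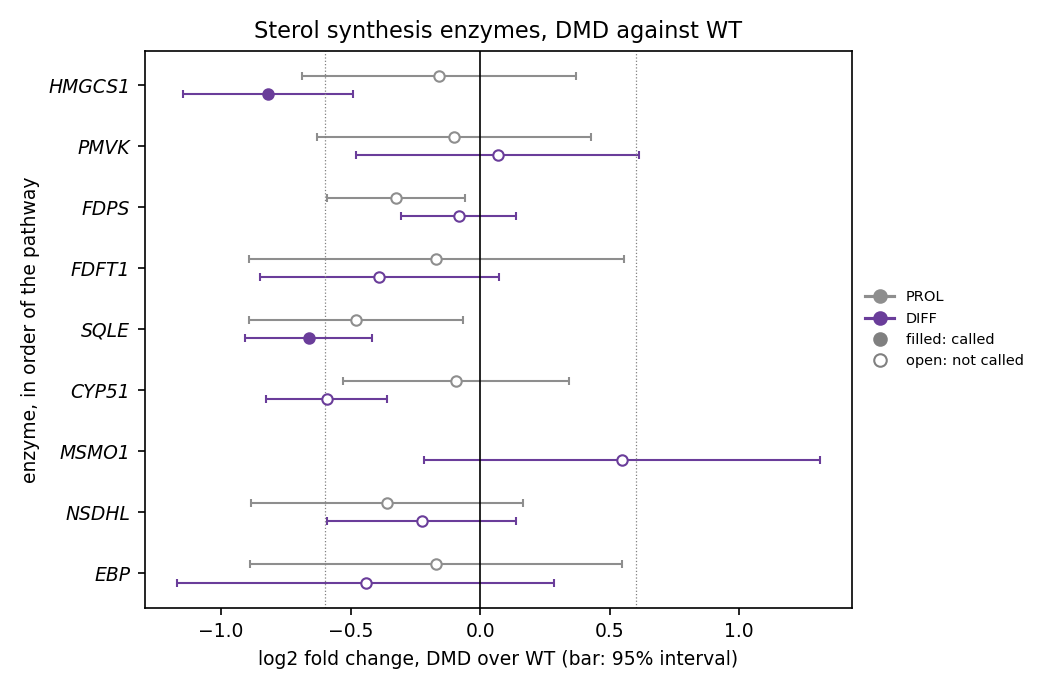
Log2 fold change of DMD against WT for the same enzymes in PROL (grey) and DIFF (purple), with 95% intervals, filled points for called genes and dotted lines at the limit of 0.6. In DIFF, HMGCS1 and SQLE are called, and CYP51 lies at −0.59, just inside the dotted line. MSMO1 was not tested in PROL.

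The genes most like HMGCS1 over the 16 libraries, ranked by Pearson correlation of log2 CPM among 2029 others, were SQLE (0.968), RND3 (0.960), CST3 (0.950), CYP51 (0.949) and TSPAN3 (0.942). For CYP51 they were FDPS (0.969), CST3 (0.961), TSPAN3 (0.961), SSR3 (0.958) and RND3 (0.956), with HMGCS1 in rank 6 and SQLE in rank 8. RND3 is a small GTPase, CST3 the secreted protease inhibitor cystatin C, TSPAN3 a tetraspanin and SSR3 a subunit of the translocon-associated complex of the endoplasmic reticulum. Within groups, after removal of the group means, HMGCS1 correlated by 0.459 with SQLE, −0.0021 with RND3, 0.05 with CST3 and −0.14 with TSPAN3. In the same way CYP51 correlated by 0.645 with FDPS, −0.09 with CST3, 0.28 with TSPAN3, 0.37 with SSR3 and −0.09 with RND3. RND3 had mean levels of 66.5 ± 15.0 CPM in WT PROL, 59.7 ± 5.78 in DMD PROL, 326 ± 61.6 in WT DIFF and 183 ± 21.5 in DMD DIFF. Like HMGCS1, RND3 was called higher in DIFF in either genotype, at 2.27 and 1.60, and lower in DMD DIFF, at −0.84 (SE 0.14, edgeR adjusted p = 8.0e-05).

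Of genes that sense and control sterols, INSIG1 rose on differentiation as HMGCS1 and CYP51 did, while the median change of the list on differentiation stood near that of all tested genes. Of 21 names, 11 were in the table and 8 or 9 were tested. From PROL to DIFF 2 of 8 were called higher and 1 lower in WT SCs, with a median log2 fold change of 0.12, beside 17.9% higher and 14.3% lower of all tested genes. In DMD SCs 2 of 9 were called higher and 1 lower, with a median of −0.08, beside 16% and 12.4%. Between the genotypes in DIFF, 1 of 9 was called higher in DMD and none lower, beside 16.1% and 17.5% of all tested genes. The median there was −0.50 against −0.03 over all genes, and 7 of 9 estimates were below 0, as among the synthesis enzymes. INSIG1, which retains the SREBP complex in the endoplasmic reticulum and is itself an SREBP target, was at 13.6 ± 2.84 CPM in WT PROL, 27.4 ± 6.47 in DMD PROL, 84.3 ± 15.7 in WT DIFF and 75.9 ± 7.86 in DMD DIFF. It rose by 2.62 in WT and 1.45 in DMD SCs (SE 0.23 and 0.20, edgeR adjusted p = 2.1e-07 and 1.8e-05). Unlike both enzymes, INSIG1 was called higher in DMD than in WT SCs in PROL, at 1.01 (SE 0.29, edgeR adjusted p = 0.0165). That call was lost with the first duplicate alone and without DMD PROL replicate 3, and in DIFF INSIG1 was not called (−0.16, SE 0.17).

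NPC2, a lysosomal cholesterol carrier, was the other one called higher in WT SCs, at 0.73, a call that was lost with library totals. CAV1, the coat protein of caveolae, was the one called lower there, at −0.69. SCARB1, a receptor for high-density lipoprotein, was called lower in DMD SCs, at −1.34. VLDLR, a lipoprotein receptor, had 0 to 8 counts per library in WT PROL, DMD PROL and WT DIFF and 12 to 36 in DMD DIFF, and was called higher in DMD DIFF against both WT DIFF (4.20) and DMD PROL (2.88), fold changes that depend on the few counts below them.

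Fatty acid synthesis also uses acetyl-CoA. Of its 13 counted genes 6 were tested in WT SCs, with 2 called higher and 1 lower in DIFF and a median log2 fold change of 0.52, beside 17.9% higher and 14.3% lower of all tested genes. In DMD SCs 5 were tested, with none higher, 2 lower and a median of 0.11, beside 16% and 12.4%. FASN, the fatty acid synthase, rose by 0.91 in WT (edgeR adjusted p = 0.00290) and fell by 0.61 in DMD SCs (edgeR adjusted p = 0.0325). The first call was lost with library totals. The second was lost with the replicate block (−0.59), with the second duplicate alone and without any of 6 single libraries, DMD PROL replicates 1, 3 and 4 and DMD DIFF replicates 1, 3 and 4. HMGCS1 and CYP51 rose in both genotypes, whereas FASN went from 38.9 ± 5.97 CPM in PROL to 73.9 ± 21.6 in DIFF in WT SCs and from 63.5 ± 16.4 to 41.7 ± 7.23 in DMD SCs. Of 5 counted genes of sterol export, storage and oxidation, 2 were tested in WT SCs, with 1 called higher in DIFF, and 4 in DMD SCs, with 1 higher and 1 lower, beside the same shares of all tested genes.

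Markers of growth and of other cells moved with the same comparisons. The 10 counted cell cycle genes summed to 1530 to 2040 CPM in WT PROL and 2042 to 2241 in DMD PROL, and to 506 to 663 in DIFF, with 8 of 9 called lower in DIFF in each genotype, beside 14.3% of all tested genes in WT and 12.4% in DMD SCs. The exception in both was MKI67, with means of 425 and 352 CPM in WT PROL and DIFF and 405 and 369 in DMD SCs. MKI67 made up most of the DIFF sums. The 10 counted myogenic markers summed to 3292 to 5253 CPM in WT PROL, 10505 to 14455 in DMD PROL, 6122 to 7858 in WT DIFF and 25215 to 27539 in DMD DIFF. Most of the WT PROL sum was the integrin ITGB1, whose means were 4192.5, 5126, 3444 and 7761 CPM in the same order of groups. MYLPF, a myosin light chain, had means of 112, 3512, 1379 and 7893 CPM, and DES of 71.0, 1170, 271 and 2057. In DIFF, 7 of 7 tested markers were called higher in DMD than in WT SCs, beside 16.1% of all tested genes. ITGB1 was not called between the genotypes in PROL (0.28). The 6 fibroblast markers summed to 8249 to 10013 CPM in WT PROL, 4144 to 4581 in DMD PROL, 21310 to 24402 in WT DIFF and 9488 to 12716 in DMD DIFF, and 5 of 6 were called lower in DMD than in WT DIFF, beside 17.5% of all tested genes. The exception was COL1A2 (0.20, not called), which made up most of the DMD DIFF sum. COL1A2 had means of 5017, 3234, 7918 and 9109 CPM in the same order of groups, and DCN of 1665, 225, 7214 and 385. Of the adipocyte markers ADIPOQ, LPL and DGAT2 had 0 counts in all libraries. The 8 counted summed to 130 to 181 CPM in WT PROL, 102 to 132 in DMD PROL, 153 to 179 in WT DIFF and 154 to 205 in DMD DIFF. Most of this was PLIN2, with means of 142, 102, 143 and 163 CPM. From PROL to DIFF, PPARG was called higher in WT SCs (1.82, 1 of 3 tested) and PLIN2 in DMD SCs (0.67, 1 of 1), beside 17.9% and 16% of all tested genes. These calls were lost in 2 of 14 and 3 of 18 alternatives. PLIN2 was also called in the interaction (0.67), beside 23.4% of all tested genes, a call that was lost in 4 of 25 alternatives. The 4 endothelial markers summed to 146 to 163 CPM in WT PROL, 16.0 to 34.1 in DMD PROL, 78.5 to 123 in WT DIFF and 33.8 to 50.5 in DMD DIFF. Most of the WT PROL sum was ERG, with means of 105, 19.3, 52.1 and 28.3 CPM in the same order of groups. In WT SCs PECAM1 was called higher in DIFF (0.92), and ERG (−1.03) and ENG (−1.38) lower, beside 17.9% and 14.3% of all tested genes. The calls of PECAM1 and ENG were lost in 2 and 4 of 17 alternatives. Of the 2 blood markers HBB had no count, and CD14 was at 40.04 to 69.6 CPM in WT PROL, 25.9 to 39.6 in DMD PROL, 47.7 to 62.0 in WT DIFF and 18.2 to 23.1 in DMD DIFF. CD14 was called lower in DMD SCs in PROL (−0.71, SE 0.22, edgeR adjusted p = 0.0260) and in DIFF (−1.40, SE 0.22, edgeR adjusted p = 4.7e-05). The PROL call was lost in 5 of 18 alternatives, which ranged from −1.26 to −0.35. These were the second duplicate alone and leaving out WT PROL replicate 2 or 3 or DMD PROL replicate 1 or 4. The part of cell makeup and growth in the levels of HMGCS1 and CYP51 was not tested.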

How the data were processed

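RNA was measured in 16 SC samples, each sequenced as 2 technical duplicates. According to the methods and labels, the authors primed cDNA from 25 ng of total RNA with poly-dT carrying UMIs, demultiplexed reads with bcl2fastq, inspected them with FastQC and MultiQC, removed UMI duplicates with UMI-tools, and aligned and counted them with STAR 2.7.10b on susScr3. The deposited values are raw counts per gene without normalization. The annotation and strand setting are not given in the sources used here. The authors' own tests used R 4.1.2.

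Here the duplicates were added, and every sample was mapped to its group by its labels. All 124000 deposited values were even. In R 4.3.3 with edgeR 4.0.16, genes were filtered with filterByExpr (minimum count 10, total 15), scaled by TMM and tested with estimateDisp, robust glmQLFit and glmQLFTest. Each comparison was fitted on its 8 libraries and the interaction on 16. SE is the absolute log2 fold change divided by the square root of F. Intervals of levels are exact Poisson intervals that cover counting error alone. Genes compared by correlation used log2 CPM with a prior count of 2. Scripts were tested on simulated data. DESeq2 1.42.0, other scalings, filters, single duplicates, halved counts, rows without rRNA, a replicate block and leaving out each library served as alternatives.

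PROL and DIFF samples of one number come from the same animal, and what remained of each after its group mean was removed correlated by 0.0998 to 0.172. WT and DMD animals share only a number. No separate cultures of one animal were measured, so n counts animals. HMGCS1 and CYP51 and the gene lists were chosen with earlier results of these data known. Named are HMGCS1, CYP51 and all counted sterol synthesis enzymes, of other lists at most 6 members called in a pairwise comparison by smallest p, at most 3 markers per cell type, and the 5 genes most correlated with each enzyme. DES, MYF5, MKI67 and markers at 0 were named outside this rule after their values were seen. In the Sscrofa11.1 annotation no other gene overlapped either enzyme, but the files use another build, so no coordinates are given. Sequences were not used here, and some genes of the lists are not reported here.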

Additional observations from a re-analysis of the deposited data

Results flagged for a closer look

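Levels were screened for single animals far from the other 3 of their group, by Dixon's ratio of gap to range, in 28 named genes and 112 groups. Chance alone gives about 1 such value in 20 groups, and 11 were found. None was in HMGCS1 or CYP51. Among the other sterol synthesis enzymes PMVK was at 27.1 CPM in DMD PROL replicate 1 (others 19.7 to 20.2), FDPS at 528.9 in DMD DIFF replicate 3 (others 601 to 608), and FDFT1 at 36.3 in WT DIFF replicate 3 (others 42.8 to 44.1) and 23.1 in DMD DIFF replicate 3 (others 33.8 to 35.6). HSD17B7, with only 0 to 2 counts per library in DMD PROL, was at 0 CPM in replicate 3 of that group, where the others had 1.23 to 1.31. EBP was at 32.4 in WT DIFF replicate 2 (others 16.8 to 19.3). DMD DIFF replicate 3 also had the lowest HMGCS1 level of its group, 59.1 CPM. Elsewhere INSIG1 was at 107.6 CPM in WT DIFF replicate 2 (others 73.6 to 79.0). ACSL1, an acyl-CoA synthetase with only 2 to 10 counts per library in WT PROL, was at 7.29 in replicate 1 of that group (others 1.09 to 1.54). ACSL3 was at 81.2 in DMD DIFF replicate 4 (others 51.3 to 53.3), ACSL4 at 132 in WT DIFF replicate 1 (others 88.6 to 93.3), and TSPAN3 at 1493 in WT DIFF replicate 3 (others 1135 to 1194).

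The genotype difference changed between PROL and DIFF in the edgeR interaction test for VLDLR (5.13, adjusted p = 0.00133), FASN (−1.53, 8.2e-04), INSIG1 (−1.17, 0.00426), NPC2 (−0.76, 3.7e-04), RND3 (−0.67, 0.0243) and TSPAN3 (−0.65, 9.4e-04), whereas HMGCS1 (−0.67, adjusted p = 0.0624) and CYP51 (−0.51, 0.0830) did not pass it. RND3 and HMGCS1 thus had the same estimate to 2 decimals and lay on either side of the threshold. The calls of NPC2 with library totals and of INSIG1 with the first duplicate alone were lost.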

How the results depend on the processing

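HMGCS1 in DIFF, and both enzymes in both state comparisons, kept direction and call under all 18 alternatives each. Leaving out single libraries gave −0.96 to −0.73 for HMGCS1 in DIFF, 2.09 to 2.31 and 1.41 to 1.66 for HMGCS1 and 2.32 to 2.47 and 1.77 to 2.05 for CYP51 on differentiation of WT and DMD SCs. In PROL, where neither gene was called, HMGCS1 turned to 0.12 with the first duplicate alone and CYP51 to 0.0626 with the second, and single libraries gave −0.29 to −0.04 and −0.24 to 0.0317. WT and DMD animals share only a number, and with that number as a replicate block CYP51 in DIFF was called (−0.60, edgeR adjusted p = 3.5e-04, and 9.0e-06 to 0.00208 over its alternatives), and single libraries gave −0.67 to −0.53. No other call of HMGCS1 or CYP51 changed with a replicate block, which was the animal between PROL and DIFF and in the interaction (−0.68 and −0.50). The HMGCS1 interaction passed with a minimum count of 50 (−0.69, edgeR adjusted p = 0.0445). Single libraries gave −0.80 to −0.54 for it and −0.63 to −0.35 for CYP51, and over all alternatives the adjusted p ran from 0.0299 to 0.438 and from 0.0258 to 0.490. The log2 ratio of HMGCS1 to CYP51 gave −0.28 to 0.17 in PROL without single libraries, with 0.0931, 0.0626 and 0.17 above 0 without WT PROL replicate 1 and DMD PROL replicates 2 and 3. In DIFF it gave −0.31 to −0.13. On differentiation it gave −0.34 to −0.0765 in WT, with an exact permutation p of 0.0286 without WT PROL replicate 2, and −0.61 to −0.15 in DMD SCs. Of the sterol synthesis enzymes, 1 was called in PROL with library totals and 0 to 1 without single libraries, 1 was called in DIFF with library totals, 1 with the second duplicate and 1 to 3 without single libraries (1 without WT DIFF replicate 4), 4 were called on differentiation of DMD SCs with the second duplicate, and the interaction called 1 with a minimum count of 50 and 0 to 1 without single libraries. Without single libraries 6 to 7 were called on differentiation of WT and 7 of DMD SCs. With a minimum count of 50 HMGCS1 was not tested in PROL. The cause of these changes was not tested. HMGCS1 in PROL rested on 34 to 50 counts per library, and the difference that this depth could show was not measured.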
